A study of Mus musculus with 16 samples.

Results

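Mbp, Pmp22, Prx and Cnp are 4 genes of the myelin sheath and of the Schwann cells that make it, and they were read here in rotator cuff muscle after a tenectomy with denervation and in muscle that was not operated on. They were chosen by name as genes of myelin. Earlier results of these data were known when they and the gene lists below were chosen. All 4 were among the 11710 genes of the deposited count table and passed the filter on low counts. The study measured messenger RNA by sequencing in 16 muscle samples in 4 groups of 4. These groups cross the strain, C57BL/6J (BL6 below, a common inbred reference strain) or MRL/MpJ (MRL below, an inbred strain known for unusual wound healing), with the treatment, an operation that removed the tendon and denervated the muscle, or no operation. The sample labels name the supraspinatus and the series description the infraspinatus. No transgene or drug is named for any group, and the age and sex of the mice and the time from operation to collection are not given in the sources used here. The labels do not say whether the replicates were separate mice, so p-values measure the spread between these samples, which may be technical.

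In a muscle nerve, Schwann cells wrap the motor and sensory axons, and one cell lays down the myelin of one segment. Myelin is held together by a small set of abundant proteins: Pmp22 spans the compact membrane, Mbp lies on its cytoplasmic side, and Prx and Cnp sit in the parts that are not compacted. When an axon is cut, the Schwann cells beyond the cut are known to break down their myelin, to lower myelin gene expression and to enter a repair state, and they raise the myelin genes again when axons grow back. Some of these genes also give RNA outside myelin: Mbp has an upstream promoter (the golli transcripts) used in immune cells, Pmp22 is expressed by fibroblasts and endothelium, and Cnp is expressed at a low level by many cells. In bulk muscle, fewer cells of a type and less RNA per cell cannot be told apart.

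Total counts ran from 24323862 to 43552964 per sample. Levels are given as CPM, the usual unit that scales a gene's counts by the total of its sample, here after TMM scaling, and a gene was called when its Benjamini-Hochberg adjusted p was under 0.05 in edgeR's quasi-likelihood test over 11709 genes. Skeletal muscle genes were abundant in every group: the 10 muscle fibre markers summed to 134221 to 188932 CPM in unoperated muscle and to 64664 to 178962 CPM in operated muscle. The Schwann cell genes Mal, Sox10 and S100b were detected in every sample, and none of the listed genes analysed was at 0 in any sample. The lowest mean of any deposited gene was 0.955 CPM, so the absence of 0 counts is no evidence of Schwann cells. Depth and surgery went together in BL6, where operated totals were 26469749 to 31094642 and unoperated totals 33679319 to 43552964. In MRL operated totals were 24323862 to 33531139 and unoperated totals 30309957 to 39694956, and only operated replicate 4 reached the unoperated range. Mitochondrial genes took 17.4% to 23.8% of counts in operated BL6 and 12.2% to 14.2% in unoperated BL6. In MRL they took 10.97% to 11.63% without surgery and 20.1% to 24.9% in operated replicates 1 to 3. Operated MRL replicate 4 held 11.8%, a share of the unoperated size. In Myog, a gene raised by denervation, it held 15.1 CPM, against 2.29 to 4.77 CPM in unoperated MRL. The other operated MRL samples held 8.02 to 10.6 CPM of Myog. The muscle fibre sum of operated MRL replicate 4 was 97837 CPM, against 134221 to 146435 CPM in unoperated MRL. Unoperated MRL replicate 1 and operated BL6 replicate 4 also stood apart from their groups, with 366 CPM and 625 CPM for the sum of 8 macrophage and leukocyte genes, against 81.4 to 108 CPM and 92.0 to 178 CPM in the other samples of those groups. Unoperated BL6 replicate 1 held 153 CPM in that sum against 40.1 to 62.0 CPM in the other unoperated BL6 samples; without it the BL6 calls of Mbp, Pmp22 and Prx held, at 1.91, 2.30 and 1.25, and that of Cnp did not.

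After surgery the RNA of these 4 myelin genes was higher in BL6 muscle, by 3.80-fold for Mbp, 4.52-fold for Pmp22, 2.36-fold for Prx and 1.25-fold for Cnp, and all 4 were called. In MRL muscle Mbp rose 2.22-fold and Pmp22 2.11-fold, while Prx, with a fold of 1.69, and Cnp, with a fold of 0.810, were not called. The background was high: surgery called 67.9% of all genes tested in BL6 and 45% in MRL, and 35.1% and 22.3% of all genes were called higher and 32.8% and 22.7% lower. A call in either direction was therefore common in BL6. By size of change, 3.83% of all genes had a larger log2 fold change than Mbp in BL6 and 2.49% a larger one than Pmp22. For Prx that share was 11.6% and for Cnp 37.7%.

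**Figure D1:**
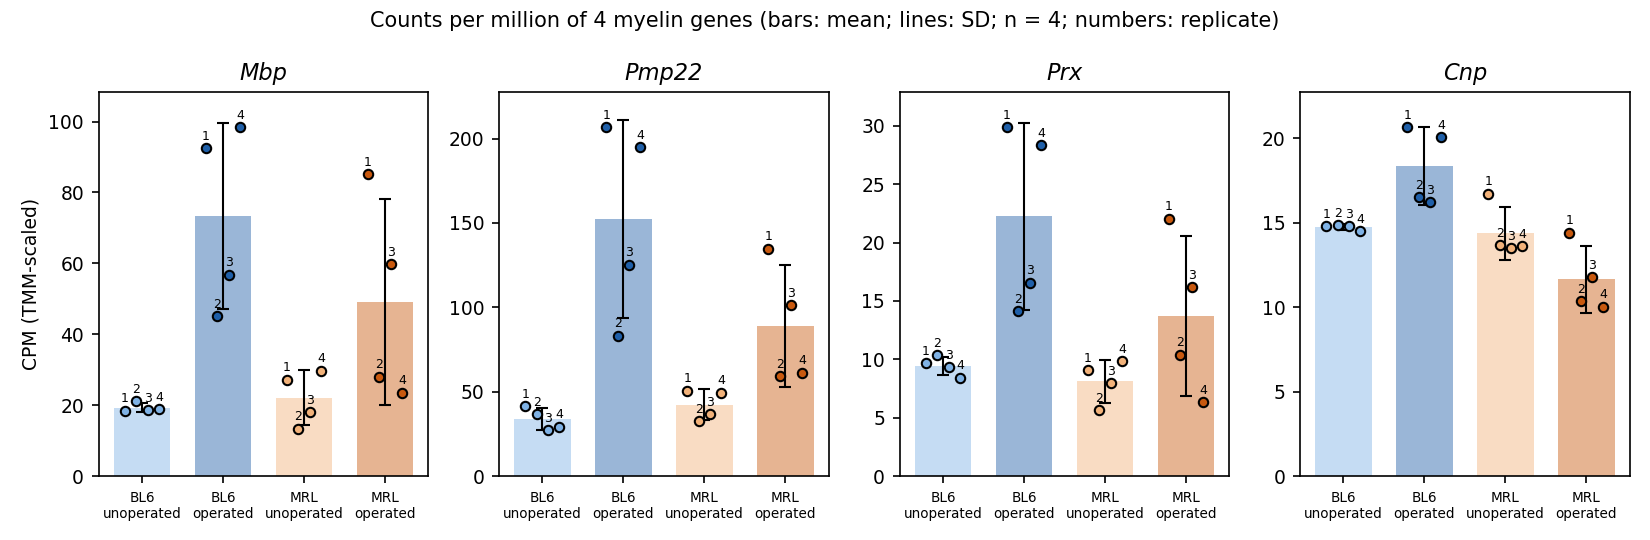
TMM-scaled CPM of Mbp, Pmp22, Prx and Cnp (vertical axes, each from 0) in the 4 groups; bars are means, lines are SDs over 4 samples and numbered points are replicates. Operated BL6 samples lie above all unoperated BL6 samples for each gene, with replicates 1 and 4 highest; in operated MRL replicate 1 is highest for each gene and replicates 2 and 4 lie lowest.

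Mbp (ENSMUSG00000041607; chromosome 18, 82475146 to 82585637, plus strand, GRCm38) codes for myelin basic protein, which binds the cytoplasmic faces of the myelin membrane together. Unoperated BL6 samples held 18.4, 21.1, 18.6 and 18.9 CPM in replicates 1 to 4, and operated BL6 samples 92.6, 45.2, 56.8 and 98.5 CPM. The groups did not overlap, and operated replicates 1 and 4 lay well above replicates 2 and 3. The log2 fold change was 1.93 (SE 0.38, edgeR adjusted p = 0.000431). Unoperated MRL samples held 27.2, 13.3, 18.1 and 29.7 CPM, and operated MRL samples 85.1, 28.0, 59.8 and 23.5 CPM. Here the groups overlapped, because operated replicates 2 and 4 lay below the highest unoperated sample. The log2 fold change in MRL was 1.15 (SE 0.37, edgeR adjusted p = 0.0205). That call was lost without operated replicate 1 (0.75, adjusted p 0.0969), operated replicate 3 (1.04, 0.0600), unoperated replicate 2 (0.97, 0.0658) or unoperated replicate 3 (1.07, 0.0593). Without operated replicate 4, the sample with the low mitochondrial share, it was 1.38 (edgeR adjusted p = 0.00460).

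Pmp22 (ENSMUSG00000018217; chromosome 11, 63128982 to 63159547, plus strand, GRCm38) codes for peripheral myelin protein 22, a membrane protein of compact myelin whose gene dosage underlies inherited neuropathies in people. In BL6 it held 41.6, 36.7, 27.4 and 29.3 CPM without surgery and 207, 83.2, 125 and 195 CPM with it. Its log2 fold change of 2.18 (SE 0.31, edgeR adjusted p = 4.55e-05) was the highest of the 4 genes in this strain. In MRL it held 50.6, 32.5, 36.6 and 49.3 CPM without surgery and 135, 59.2, 101 and 61.2 CPM with it. In both strains every operated sample lay above every unoperated one, which held for 27.5% of all genes in BL6 and for 17% in MRL. The log2 fold change in MRL was 1.08 (SE 0.30, edgeR adjusted p = 0.0106). Its calls in both strains held in each alternative run, leaving out each replicate in turn included.

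Prx (ENSMUSG00000053198; chromosome 7, 27499324 to 27520214, plus strand, GRCm38) codes for periaxin, a cytoskeletal protein that links the outer Schwann cell membrane to the basal lamina through Drp2 and dystroglycan. Its values in BL6 were 9.67, 10.3, 9.33 and 8.42 CPM without surgery and 29.9, 14.1, 16.6 and 28.3 CPM with it. The groups did not overlap, and the log2 fold change was 1.24 (SE 0.32, edgeR adjusted p = 0.00332). In MRL it held 9.05, 5.65, 7.93 and 9.86 CPM without surgery and 22.05, 10.4, 16.2 and 6.32 CPM with it. Operated replicate 4 lay within the unoperated range. The log2 fold change in MRL was 0.75, with a 95% interval from 0.07 to 1.44 that is not adjusted for the number of genes, and was not called (edgeR adjusted p = 0.0659). Without operated MRL replicate 4 it was called, with 0.99 (edgeR adjusted p = 0.00902), and DESeq2 also called it (0.75, adjusted p = 0.0474). Without operated MRL replicate 1 it was 0.43 (edgeR adjusted p = 0.272). Drp2, the partner of periaxin at the membrane, had log2 fold changes of 0.42 in BL6 and 0.61 in MRL and was called in neither. Prx shares 300 exonic bases with an antisense gene, and since the use of strand in counting is not given in the sources used here, reads from that stretch cannot be assigned.

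Cnp (ENSMUSG00000006782; chromosome 11, 100574904 to 100591729, plus strand, GRCm38) codes for a cyclic nucleotide phosphodiesterase that keeps cytoplasmic channels open in myelin. It differed in pattern from the other members. In BL6 the unoperated samples were tightly grouped at 14.8, 14.9, 14.8 and 14.5 CPM, and the operated samples held 20.7, 16.5, 16.2 and 20.05 CPM. These groups did not overlap, but the difference was small, a log2 fold change of 0.32 (SE 0.12, edgeR adjusted p = 0.0321). The call was lost on leaving out operated replicate 1 (adjusted p 0.0993) or 4 (0.0888), or unoperated replicate 1 (0.0562), 2 (0.0560), 3 (0.0587) or 4 (0.0661). It was also lost without the 2 libraries that stood apart in macrophage genes (0.27, adjusted p 0.0734), while the calls of Mbp, Pmp22 and Prx in BL6 held there at 1.75, 2.03 and 1.09. In MRL the direction was the opposite, with 16.7, 13.6, 13.5 and 13.6 CPM without surgery and 14.4, 10.3, 11.8 and 10.03 CPM with it. The log2 fold change of -0.30 (edgeR adjusted p = 0.0560) was not called, and without operated MRL replicate 1 it was, at -0.42 (edgeR adjusted p = 0.0174). It was also called with DESeq2, limma-voom, DESeq2 size factors and the replicate block. Cnp shares 154 exonic bases with Dnajc7, a chaperone gene on the other strand, whose level was 112 ± 7.08, 111 ± 16.9, 123 ± 7.34 and 116 ± 9.20 CPM (SD, n = 4) in unoperated BL6, operated BL6, unoperated MRL and operated MRL. Dnajc7 was called in none of the 5 comparisons. As for Prx, reads from the shared stretch cannot be assigned, and their part in the Cnp values was not tested.

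The stretches before the start sites are shown for Prx, Pmp22 and Cnp because these 3 genes moved by different amounts in the same libraries; they come from RefSeq (GRCm38.p6), read 5′ to 3′ on the plus strand, and end before the first annotated transcribed base. Sox10 and Egr2 are the transcription factors known to switch on myelin genes in Schwann cells. Capitals mark matches to ACAAAG (the SOX10 core) or GTGGGNG (the EGR2 core), searched on both strands over 250 bases before each RefSeq start.
Prx, chr7:27499074-27499323: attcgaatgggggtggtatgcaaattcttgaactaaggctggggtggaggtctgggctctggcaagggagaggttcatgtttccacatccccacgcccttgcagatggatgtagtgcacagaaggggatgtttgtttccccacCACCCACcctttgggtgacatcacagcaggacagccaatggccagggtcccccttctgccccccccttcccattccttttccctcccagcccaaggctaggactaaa
Pmp22, chr11:63128732-63128981: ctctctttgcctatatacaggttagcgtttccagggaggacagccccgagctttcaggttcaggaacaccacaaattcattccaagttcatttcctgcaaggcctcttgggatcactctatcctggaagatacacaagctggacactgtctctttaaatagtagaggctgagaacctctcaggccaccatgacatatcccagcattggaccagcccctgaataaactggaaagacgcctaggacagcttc
Cnp, chr11:100574689-100574903: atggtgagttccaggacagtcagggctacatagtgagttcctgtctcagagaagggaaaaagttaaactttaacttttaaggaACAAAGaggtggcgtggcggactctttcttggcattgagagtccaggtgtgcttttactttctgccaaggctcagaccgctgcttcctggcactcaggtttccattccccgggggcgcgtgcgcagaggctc
The Prx stretch holds 1 match to the EGR2 core, on the minus strand, and the Cnp stretch 1 match to the SOX10 core, on the plus strand. In the Pmp22 stretch, which lies before the first of its 4 listed starts, neither run of letters occurs. Over 32851 mouse promoters the ACAAAG letters were found in 16.5% and the GTGGGNG letters in 28.1%, so each of these matches is common and is a description of the letters alone. Counts per gene do not separate the starts of Pmp22.

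Between strains, none of the 4 genes was called in unoperated muscle, where 10.4% of all genes were; the intervals leave room for differences in either direction, and leaving out single MRL samples moved Mbp between 0.02 and 0.38, Prx between -0.33 and -0.08 and Cnp between -0.13 and -0.01. The log2 difference of MRL from BL6 was 0.20 for Mbp (95% interval -0.58 to 0.98), 0.32 for Pmp22 (-0.31 to 0.96), -0.22 for Prx (-0.90 to 0.46) and -0.04 for Cnp (-0.30 to 0.22). After surgery all 4 had a lower mean in MRL, and Cnp was called, where 12.9% of all genes were called and 5.27% were called lower in MRL. Operated BL6 samples held 18.4 ± 2.32 CPM of Cnp and operated MRL samples 11.6 ± 2.001 CPM (SD, n = 4), a log2 difference of -0.66 (SE 0.12, edgeR adjusted p = 0.00205). Every operated MRL sample lay below every operated BL6 sample, which held for 6.16% of all genes in that direction. With only these 2 groups in the fit edgeR's adjusted p was 0.0524. For Pmp22 the difference after surgery was -0.78 (adjusted p 0.103 in that test), for Prx -0.70 (0.170) and for Mbp -0.58 (0.332). The Mbp difference was -0.98 without operated MRL replicate 1 and -0.36 without operated MRL replicate 4, and was called in neither case. Pmp22 was called without operated MRL replicate 1 (-1.05, adjusted p 0.0362) or operated BL6 replicate 2 (-0.98, 0.0266), and Prx without operated MRL replicate 1 (-1.02, 0.0475).

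Whether surgery acted differently on these genes in the 2 strains was tested by the interaction, which called 0.248% of all genes and none of these 4 in edgeR's quasi-likelihood test; 2 of them, Pmp22 and Cnp, had an unadjusted p under 0.05, as did 1843 of the 11709 genes tested. The change in MRL minus that in BL6 was -0.78 for Mbp (95% interval -1.87 to 0.32, adjusted p 0.449), -1.10 for Pmp22 (-1.99 to -0.21, 0.245), -0.48 for Prx (-1.44 to 0.47, 0.587) and -0.62 for Cnp (-0.99 to -0.25, 0.141). Single libraries moved these values: without operated MRL replicate 1 that of Mbp was -1.18 and that of Prx -0.81, and Prx was -0.25 without operated MRL replicate 4 and -0.31 without operated BL6 replicate 1. Without the pair of libraries that stood apart in macrophage genes Mbp was -0.48 and Prx -0.28, and neither was called in any of these. Of the 4, DESeq2 called Cnp, at -0.64 (adjusted p = 0.0396). All 4 estimates were negative, but they share libraries and are not independent of each other. Calls in one strain and not in the other are therefore not shown to be differences between the strains.

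Within the operated groups, libraries high in one of these genes were high in the others. Among operated BL6 samples, replicates 1 and 4 held the most and replicates 2 and 3 the least of all 4 genes, and among operated MRL samples replicate 1 held the most and replicate 3 the next most of each. After group means were subtracted from log2 CPM, Pearson's r over the 16 samples was 0.96 between Mbp and Prx, 0.91 between Mbp and Pmp22, 0.89 between Pmp22 and Prx, and 0.83 to 0.84 between Cnp and each of the others. The deviations share library, depth and scaling, and r is given as a description. Among 9623 named genes of at least 5 CPM that were compared, the closest to Mbp were Prx (0.96), Mal (0.93) and Saal1 (0.92). Those closest to Pmp22 were Atp10d (0.92), Hspa12a (0.91) and Mbp (0.91), and those closest to Prx were Mal (0.97), Mbp (0.96) and Saal1 (0.92). For Cnp the closest were Mal (0.86), Saal1 (0.85) and Wasf2 (0.85). Without subtraction of group means, r of Cnp with Mbp was 0.47, with Pmp22 0.43 and with Prx 0.62. Its closest genes were then Cherp (0.78), Ccdc28b (0.77) and Tmem189 (0.76), while those of Mbp were Mal (0.97), Pmp22 (0.97) and Prx (0.95). Those of Pmp22 were Mbp (0.97), Cd9 (0.97) and Plekha4 (0.96), and those of Prx were Mal (0.96), Saal1 (0.95) and Mbp (0.95).

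**Figure D2:**
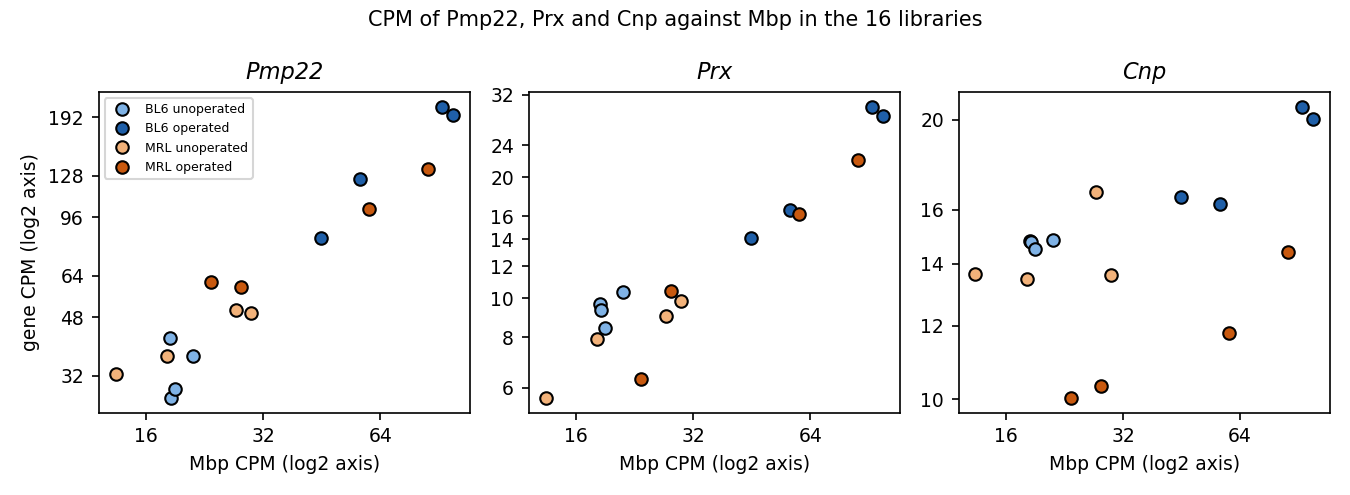
CPM of Pmp22, Prx and Cnp (vertical, log2 axis) against CPM of Mbp (horizontal, log2 axis) in the 16 libraries, colored by group. Pmp22 and Prx climb with Mbp over its range of 13.3 to 98.5 CPM, whereas Cnp stays between 10.03 and 20.7 CPM and 3 of the 4 operated MRL libraries lie lowest in it.

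Ratios within a library do not depend on the scaling, and are given here for pairs of myelin genes. The ratio of Mbp to Pmp22 counts was 0.586 ± 0.105 in unoperated and 0.487 ± 0.0453 in operated BL6, and 0.511 ± 0.0806 and 0.520 ± 0.113 in MRL (SD, n = 4), with ranges that overlapped between all groups. The ratio of Mbp to Prx ran from 1.90 to 2.25 in unoperated and from 3.09 to 3.47 in operated BL6, without overlap, and from 2.28 to 3.02 and from 2.69 to 3.86 in MRL, with overlap. The ratio of Mbp to Cnp ran from 1.24 to 1.42 in unoperated and 2.74 to 4.91 in operated BL6, and from 0.978 to 2.19 and 2.34 to 5.90 in MRL, without overlap in either strain. These ratios were formed after the values had been seen and are given without a test.

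Levels of different genes can be set side by side only per length, here as CPM per kilobase of the union of annotated exons. On that scale Pmp22 had the highest level of the 4 genes in unoperated BL6, 14.3 ± 2.81, followed by Cnp at 4.05 ± 0.0439, Mbp at 2.28 ± 0.149 and Prx at 1.69 ± 0.144 (SD, n = 4). In operated BL6 the levels per kilobase were 64.8 ± 24.9 for Pmp22, 8.65 ± 3.10 for Mbp, 5.04 ± 0.639 for Cnp and 3.99 ± 1.44 for Prx, so that Mbp stood above Cnp. In unoperated MRL they were 17.9 ± 3.85 for Pmp22, 3.95 ± 0.433 for Cnp, 2.61 ± 0.908 for Mbp and 1.46 ± 0.328 for Prx. In operated MRL they were 37.9 ± 15.3 for Pmp22, 5.80 ± 3.42 for Mbp, 3.20 ± 0.550 for Cnp and 2.46 ± 1.23 for Prx, where the last 3 overlapped within their SDs. The union for Mbp is 8469 bases long and takes in the golli exons, which lowers its value on this scale.

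The other genes of peripheral myelin were read from a list of 25, of which 17 were analysed. In BL6, 12 of the 17 were called higher, 3 lower and 2 neither, with a median log2 fold change of 1.34, beside a median of 0.04 over all genes. In MRL, 7 were called higher, 2 lower and 8 neither, with a median of 0.51, beside 0.01 over all genes. Of all genes, 35.1% were called higher and 32.8% lower in BL6, and 22.3% and 22.7% in MRL. Mal, a raft protein of myelin, went from 3.304, 2.78, 2.59 and 2.49 CPM to 15.5, 6.43, 8.09 and 11.5 CPM in BL6, a log2 fold change of 1.90 (edgeR adjusted p = 0.000702). In MRL it went from 3.76, 2.04, 2.84 and 3.74 CPM to 12.7, 4.65, 6.64 and 2.53 CPM, with 1.09 (edgeR adjusted p = 0.0336), and operated replicate 4 lay within the unoperated range. Other called rises in both strains were in Cd9, a tetraspanin (1.93 in BL6 and 0.96 in MRL), Gldn, the gliomedin that gathers sodium channels at nodes (2.47 and 1.28), Ugt8a, which makes the lipid galactocerebroside (1.89 and 1.66), and the neuropathy genes Litaf (2.14 and 1.34), Sh3tc2 (1.49 and 1.12) and Arhgef10 (0.85 and 0.52). Ncmap, a protein of noncompact myelin, rose in BL6 (2.35) and was not called in MRL (0.51), and the same held for Cldn19, a Schwann cell claudin (1.34 and 0.43). The falls were in Gdap1, a mitochondrial protein gene mutated in neuropathy (-2.08 and -1.77), Fig4 (-0.51 and -0.38) and, in BL6, Mpdz (-1.001). Levels of Gdap1 and Mpdz in unoperated BL6 muscle were 57.4 ± 6.03 and 125 ± 13.6 CPM (SD, n = 4). The interaction called 0 of the 17. Among operated samples, 1 of the 17 was called lower in MRL, Cldn19 (-1.03, edgeR adjusted p = 0.0159). In that comparison 1 was called higher, Mpdz (0.55, edgeR adjusted p = 0.0295). Over all genes 12.9% were called there and 5.27% were called lower. This count of 2 ranged from 1 to 3 on leaving out each sample.

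**Figure D3:**
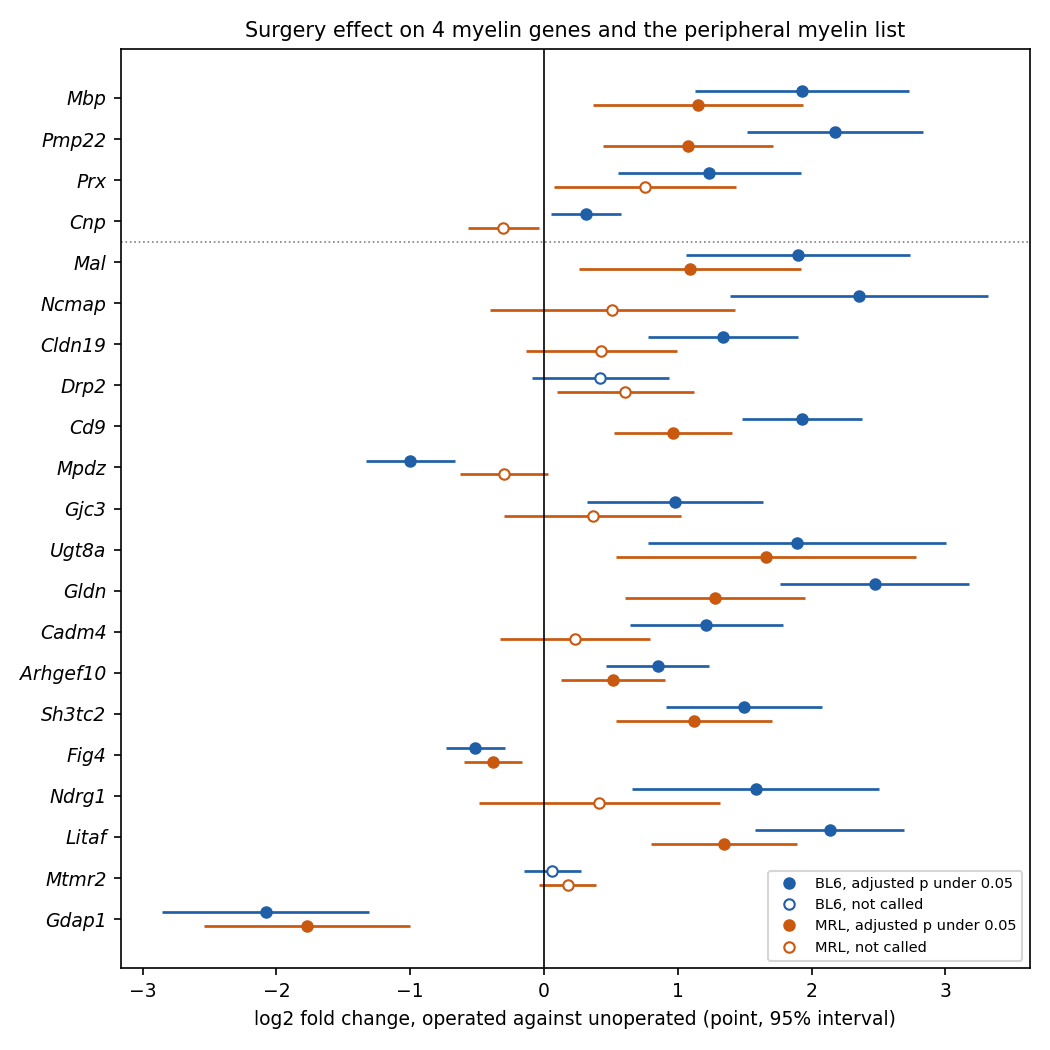
Log2 fold change of operated against unoperated muscle (horizontal axis) for Mbp, Pmp22, Prx and Cnp, above the dotted line, and the 17 analysed genes of the peripheral myelin list, in BL6 (blue) and MRL (orange); lines are 95% intervals and filled points were called. Most points lie right of 0 and the BL6 value lies right of the MRL value for Mbp, Pmp22, Prx and Cnp; Gdap1 lies furthest left, at -2.08 and -1.77.

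Of 22 listed regulators of the Schwann cell lineage, 14 were analysed. In BL6, 11 were called higher and 2 lower, with a median log2 fold change of 0.87. In MRL, 6 were called higher and 1 lower, with a median of 0.58. Over all genes, 35.1% were called higher and 32.8% lower in BL6, and 22.3% and 22.7% in MRL. The medians over all genes were 0.04 and 0.01. Sox10, the transcription factor that marks the lineage, was 1.85 ± 0.470 CPM in unoperated and 5.25 ± 1.93 CPM in operated BL6 (SD, n = 4), which is 1.503 on the log2 scale (edgeR adjusted p = 0.000988). In MRL it was 1.56 ± 0.538 and 2.33 ± 0.738 CPM, with 0.57 (edgeR adjusted p = 0.163). Among operated samples Sox10 was lower in MRL, with a log2 difference of -1.18 (edgeR adjusted p = 0.0261), and the other 13 genes of the list were not called in that comparison. No gene of the list was called there without operated BL6 replicate 1, without operated MRL replicate 4, with scaling by library totals alone or with only the compared groups fitted. S100b, a calcium-binding protein of Schwann cells, rose in both strains (2.29 and 1.24). Of the neuregulin receptors, Erbb2 rose in both strains (1.26 and 0.82) while Erbb3 fell in both (-0.52 and -0.39). The MRL count of 7 calls went to 4 without unoperated replicate 2, unoperated replicate 4 or operated replicate 3, and with scaling by library totals alone.

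Genes known from repair Schwann cells were listed as 22, of which 11 were analysed. In BL6, 10 were called higher and 0 lower, with a median log2 fold change of 1.41, and in MRL 5 were called higher, with a median of 0.77. Over all genes, 35.1% were called higher in BL6 and 22.3% in MRL, with medians of 0.04 and 0.01. Ngfr, the p75 neurotrophin receptor of denervated Schwann cells, was 0.711 ± 0.405 CPM in unoperated and 3.26 ± 1.81 CPM in operated BL6 (SD, n = 4), with a log2 fold change of 2.18 (edgeR adjusted p = 0.00178). In MRL it was 1.36 ± 0.379 and 1.31 ± 0.480 CPM, with -0.05 (95% interval -1.12 to 1.03), and the interaction, -2.23 (edgeR adjusted p = 0.188), was not called. Clcf1, a cytokine of the repair state, rose in both strains (1.57 and 1.26). Jun, the transcription factor that drives that state, was not called in either (0.20 and -0.47). Several genes of this list are also expressed by muscle fibres or fibroblasts, among them Ncam1, Runx2 and Tnc. In MRL the count of 5 went to 2 without unoperated replicate 2, 3 or 4 or operated replicate 3, to 3 with scaling by library totals alone, to 2 with limma-voom and to 8 without unoperated MRL replicate 1 and operated BL6 replicate 4.

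Among genes by which muscle fibres respond to loss of their nerve, Myog rose in both strains. Myog, a transcription factor raised by denervation, went from 3.06 ± 1.24 to 12.7 ± 4.05 CPM in BL6 and from 3.05 ± 1.16 to 11.004 ± 2.98 CPM in MRL (SD, n = 4), log2 fold changes of 2.05 and 1.85 (edgeR adjusted p = 9.26e-05 and 0.00120). Chrna1, the alpha subunit of the acetylcholine receptor, fell by 0.47 and 0.37 on the log2 scale. Of the 14 analysed genes of that list, 7 were called higher and 4 lower in BL6, and 9 and 2 in MRL. The shares over all genes were 35.1% and 32.8% in BL6 and 22.3% and 22.7% in MRL. The called falls in BL6 were in Chrna1, Musk (-1.31), Dach2 (-2.35) and Hdac4 (-0.38), and in MRL in Chrna1 and Musk (-0.92). The list thus moved in both directions, and its called falls were no more common than over all genes. Of 12 axon and neuron genes 1 was analysed, Uchl1, a ubiquitin hydrolase abundant in neurons. It went from 2.41 ± 0.458 to 10.2 ± 5.49 CPM in BL6, with a log2 fold change of 2.08 (edgeR adjusted p = 0.000128), and from 0.798 ± 0.200 to 1.49 ± 0.382 CPM in MRL, with 0.89 (edgeR adjusted p = 0.0597). Uchl1 was also called lower in MRL than in BL6, both without surgery (-1.60) and after it (-2.79). Nefl, Nefm, Nefh and Prph were among the listed genes not analysed, so the list rests on 1 gene.

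Markers of other cells also changed with surgery, and their part in the result was not tested. Over all genes, 35.1% were called higher and 32.8% lower in BL6, and 22.3% and 22.7% in MRL. The 10 endothelial genes had median log2 fold changes of 1.15 in BL6 and 1.19 in MRL, with 8 and 9 called higher, and their summed level went from 470 to 662 CPM over unoperated BL6 samples to 1016 to 1257 CPM over operated ones. In MRL that sum was 365 to 515 CPM without surgery and 514 to 1255 CPM with it, and the lowest operated value was that of replicate 4, the sample that was also lowest in Mbp, Prx and Cnp. The 10 fibroblast genes had medians of 1.302 and 0.68, with 7 and 2 called higher, and sums of 691 to 1570 and 1111 to 5830 CPM in BL6 and of 1364 to 2205 and 1813 to 3315 CPM in MRL. The 9 adipocyte genes had medians of 2.76 and 2.32, with 8 called higher in each strain, and the 6 perineurium and endoneurium genes medians of 0.68 and 0.60, with 4 and 2. The 8 macrophage and leukocyte genes had medians of 1.91 and 0.43, with 5 and 1 called higher. In MRL, this count of 1 and the fibroblast count of 2 were below the share of all genes called higher. Of the 10 smooth muscle and pericyte genes 8 and 7 were called higher and 1 lower in each strain, and of the 6 satellite cell genes 2 and 1 were called higher and 3 and 2 lower. In the other direction, the 10 muscle fibre genes had medians of -0.41 and -0.37. Of these, 4 and 2 were called lower, which is near the shares over all genes. Acta1, the skeletal actin, fell by 0.99 and 0.76 on the log2 scale, and Ckm, the muscle creatine kinase, by 0.63 and 0.60. The medians of the 4 myelin genes were 1.58 in BL6 and 0.92 in MRL.

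**Figure D4:**
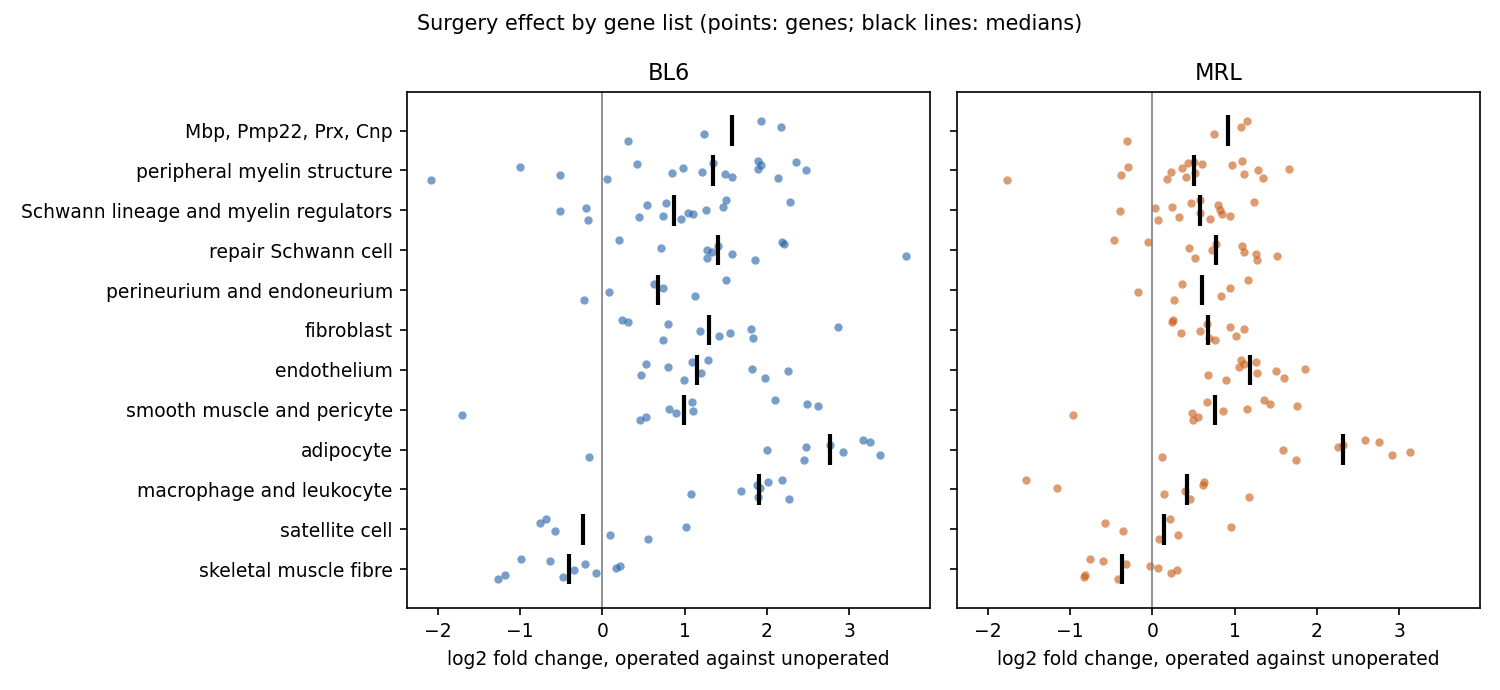
Log2 fold change of operated against unoperated muscle (horizontal axis) for the analysed genes of each list, in BL6 (left) and MRL (right); points are genes and black lines are list medians. Medians of nerve, vessel, fibroblast and adipocyte lists lie right of 0 in both strains, and those of muscle fibre genes at -0.41 and -0.37.

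The authors' deposited table gives log2 fold changes for surgery of 1.77 for Mbp, 2.05 for Pmp22, 1.13 for Prx and 0.26 for Cnp in BL6. For MRL the authors' deposited table has 1.29, 1.19, 0.84 and -0.24 in the same order. At a false discovery rate under 0.05 the authors' deposited table calls Prx in MRL (0.0387), which was not called here, and does not call Cnp in BL6 (0.0702), which was.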

How the data were processed

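Messenger RNA of 16 rotator cuff muscle samples was counted per gene. The deposited counts are whole numbers with no normalization, read as such from their values; per the submitters' processing notes FastQC, STAR, edgeR and build mm10 were used, and the counting program, its use of strand and the rule that left 11710 genes are not given in the sources used here. The authors' deposited table gives average log2 CPM, log2 fold changes, p-values and false discovery rates for 4 comparisons, per the file headers.

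Groups and replicate numbers came from sample titles. With R 4.3.3 and edgeR 4.0.16, counts were TMM-scaled and filterByExpr (minimum count 10) kept 11709 genes; all 16 samples entered 1 quasi-likelihood model with 4 group means, and p-values were adjusted over all genes. SDs are over 4 samples. On simulated counts for surgery in BL6, 68% of 100 genes changed 2-fold and 99% of 100 changed 4-fold were recovered, over 11710 genes. A count of 3, taken as the floor, equals 0.0689 to 0.123 CPM, for counting error only. No pair of replicates agreed within sampling noise.

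The members and lists were chosen with earlier results of these data known. By the rule for named genes, any analysed gene of the nerve lists could be named, with Myog and Chrna1, the first 3 analysed genes of each other list, and the 3 genes most correlated with each member. Dnajc7, Musk, Dach2 and Hdac4 were named, and the ratios were formed, after the values were seen. Same-numbered samples were checked for pairing by the correlation of their deviations from group means. Alternatives were other scalings, no filter, DESeq2 1.42.0, limma-voom (limma 3.58.1), scaling without mitochondrial genes, fits of the compared groups alone, the replicate block and leaving out each sample; leaving out 2 libraries that stood apart was chosen after seeing the data. Coordinates are from GENCODE M21 on GRCm38, the assembly of mm10, 1-based. Some myelin genes were left out of the lists and of the search for similar genes and are not reported here.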

Additional observations from a re-analysis of the deposited data

Results flagged for a closer look

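In 12 genes (Mbp, Pmp22, Prx, Cnp, Mal, Ncmap, Gldn, Cd9, Litaf, Sox10, S100b and Cldn19), each of the 4 groups was checked for a sample far from the other 3, by its gap to the nearest sample as a share of the group's range (Dixon's test at the 95% level), and 4 of 48 checks found one; chance flags about 1 group in 20. Cnp in unoperated MRL was 16.7 CPM in replicate 1 and 13.5 to 13.6 CPM in the others, a gap of 0.949 of the range, and without that sample the log2 fold change of Cnp with surgery in MRL was -0.22. Gldn in operated MRL was 5.16 CPM in replicate 1 against 2.05 to 2.52 CPM (0.847). Litaf, a neuropathy gene of the myelin list, was 39.8 CPM in operated BL6 replicate 4 against 18.7 to 22.3 CPM (0.833), and 28.1 CPM in operated MRL replicate 3 against 16.2 to 17.8 CPM (0.866). Operated BL6 replicate 4 also held the highest macrophage and leukocyte sum of its group, 625 CPM. In operated MRL that sum was 250 CPM in replicate 3 and highest in replicate 4, at 281 CPM. A link between Litaf and that sum was not tested.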

How the results depend on the processing

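Pmp22 kept its calls for surgery in both strains and Mbp and Prx theirs in BL6 under every alternative run. Chosen after seeing the data, leaving out unoperated MRL replicate 1 and operated BL6 replicate 4 together ended the call of Cnp in BL6 (0.27). Fitting only the compared groups ended that of Cnp between operated groups (-0.67). DESeq2 added calls for Prx (0.75) and Cnp (-0.32) in MRL and for the Cnp interaction (-0.64); Cnp in MRL was also called with limma-voom (-0.33), DESeq2 size factors (-0.31) and the replicate block (-0.31). Scaling by library totals turned the unoperated strain difference of Cnp from -0.04 to 0.11, neither called. On leaving out each sample, surgery in BL6 ranged from 0.26 to 0.37 for Cnp, and in MRL from 0.75 to 1.38 for Mbp, 0.43 to 0.99 for Prx and -0.42 to -0.22 for Cnp. The operated strain difference ranged from -1.05 to -0.60 for Pmp22 and from -1.02 to -0.47 for Prx. Over all genes, the interaction count of 29 went to 14 with library totals, 250 with DESeq2, 2 with the replicate block and 1 to 69 on leaving out each sample; surgery in MRL, 5272 genes, went to 3490 to 6145. With only the compared groups, the unoperated strain count of 1216 went to 2438 and the operated count of 1507 to 575. Same-numbered samples correlated over 0.1 in 12 of 24 pairs (-0.474 to 0.453), with a mean of 0.043 against -0.009 for other pairs. With 4 samples per group these values cannot decide whether same-numbered samples were paired. The main fit entered the samples as unpaired, and the replicate block changed no other call of the 4 genes. The lowest count of any of the 4 genes in a library was 221, for Prx.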
